A study of Mus musculus with 2 samples.

Results

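Cell cycle genes are described here across the cell types of adult mouse lung, in 1 GFI1 KO and 1 WT library, so named by their labels. The set was a given list of 47 genes out of the 33696 genes in the count matrices, split into 18 S phase genes, 28 mitosis genes and Stmn1, a microtubule destabiliser that was assigned to neither phase. All 47 had UMIs in each library, from 794 UMIs for Kif20a to 25848 for Pcna over both. A UMI marks a single captured mRNA molecule, and levels are UMIs per 1000000 UMIs (CPM) of the genes kept in that group of cells.

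Lungs of adult C57BL6/J-background mice, with a germline loss of GFI1 or WT, were dissociated, live cells were sorted, and 3′ ends of mRNA were counted cell by cell on the 10x Genomics platform. GFI1 is a zinc finger repressor of transcription in blood cells, and in these mice it is missing from every cell of the body. The labels name 1 mouse per genotype, and the second library that the study made for each genotype was not analysed here, so genotype and library cannot be told apart. After filters, 10495 cells remained under GFI1 KO, with a median of 11076 UMIs, and 19342 under WT, with a median of 6217. The libraries had 74 cell barcodes in common. Gfi1 itself, counted here from the 3′ end, was at 3.60 CPM under GFI1 KO (340 UMIs, interval 3.226 to 4.002) and at 3.47 CPM under WT (470 UMIs, 3.16 to 3.79), so its UMIs do not check the labels, and the names GFI1 KO and WT below stand for the libraries so labelled. All intervals are 95% intervals that cover counting error only, a count of 0 is given with the separate limit that 3 counts set, and with 1 library per label no test between genotypes was possible. Cell type names stand for cells that passed a gate on marker genes, which took 90.5% of the GFI1 KO cells and 94.9% of the WT cells.

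A dividing cell first copies its DNA and then separates the copies, and different genes serve each step. S phase genes make nucleotides, load and open the replication origins and hold the polymerase on DNA, and are switched on by E2F transcription factors when the RB brake is released. Mitosis genes condense chromosomes, build the spindle, attach kinetochores, time the split and cut the cell apart, and many carry CCAAT boxes and a cell cycle homology region (CHR) through which the DREAM and MuvB complexes act. In healthy lung most cells rest, alveolar macrophages renew themselves locally, and lymphocytes divide after stimulation or homeostatic signals.

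The lists also differed in the letters of their promoters. In RefSeq sequence of build GRCm38.p6, 40 of the 47 members had a promoter window of 300 bases, from 250 before to 50 after the start of the gene, and Mcm4, Gins2, Ccna2, Aurkb, Tpx2, Kif20a and Stmn1 had none in the table. The CHR letters TTTGAA or TTCGAA, searched on both strands, were in the windows of 20 of 24 mitosis members (83.3%), of 2 of 16 S phase members (12.5%, Mcm2 and Mcm7) and of 21.7% of all genes with a window. The E2F core, searched on both strands as TTCCCGC or TTCGCGC and as TTGCCGC or TTGGCGC, went the other way, with 11 of 16 S phase members (68.8%), 6 of 24 mitosis members (25.0%) and 10.9% of all genes. The CCAAT letters were frequent in both lists, in 21 of 24 mitosis members (87.5%) and 10 of 16 S phase members (62.5%), against 41.1% of all genes, and CCAAT and CHR together were in 19 of 24 mitosis members (79.2%) and 8.61% of all genes. Cell cycle genes outside the members were also searched, and the CHR was in 23 of 35 other mitosis genes (65.7%) and 8 of 27 other replication genes (29.6%), and the E2F core in 8 of 35 (22.9%) and 16 of 27 (59.3%).

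**Figure D1:**
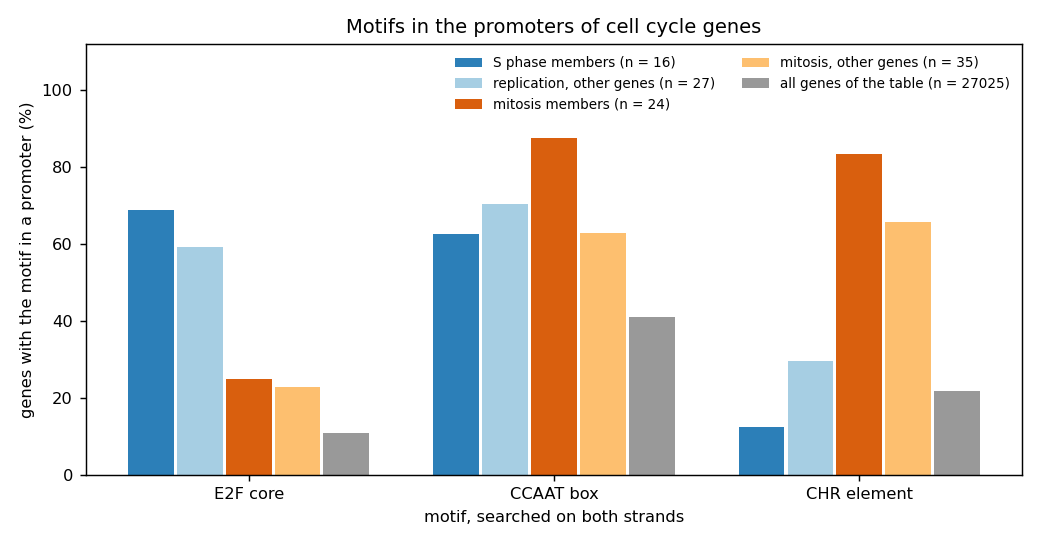
Share of genes (percent, bars from 0) with the E2F core, the CCAAT box or the CHR in a 300-base promoter window. Bars are for the S phase members, the mitosis members, other genes of each kind and all genes with a window. The CHR stands at 83.3% in mitosis members and 12.5% in S phase members, and the E2F core at 25.0% and 68.8%.

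The windows of 5 members are printed, taken from the S phase and mitosis members with the most UMIs and a window. Matched letters are in capitals on either strand and the rest in lower case, 5′ to 3′ on the strand of the gene. Pcna and Kif23 were among these members too and are not printed. The Pcna window had 1 CCAAT box and neither a CHR nor an E2F core, and the Kif23 window had 1 CCAAT box and 1 CHR. Pclaf (chr9:65890073-65890372, plus strand) encodes a PCNA-binding factor and Mcm3 (chr1:20820263-20820562, minus strand) a subunit of the replicative helicase. Pclaf had 2 CCAAT boxes and 2 E2F cores, and Mcm3 had 3 CCAAT boxes and 3 E2F cores, 2 of which overlapped each other. Cenpa (chr5:30666636-30666935, plus strand) encodes the histone H3 variant of centromeres, Top2a (chr11:99024140-99024439, minus strand) the topoisomerase that untangles sister DNA, and Mki67 (chr7:135716330-135716629, minus strand) the Ki-67 protein that coats mitotic chromosomes. Cenpa had 2 CCAAT boxes and 1 CHR, Top2a had 6 CCAAT boxes and 4 CHR, and Mki67 had 3 CCAAT boxes, 2 CHR and 1 E2F core. A match is a description of these letters and not evidence of binding.
Pclaf: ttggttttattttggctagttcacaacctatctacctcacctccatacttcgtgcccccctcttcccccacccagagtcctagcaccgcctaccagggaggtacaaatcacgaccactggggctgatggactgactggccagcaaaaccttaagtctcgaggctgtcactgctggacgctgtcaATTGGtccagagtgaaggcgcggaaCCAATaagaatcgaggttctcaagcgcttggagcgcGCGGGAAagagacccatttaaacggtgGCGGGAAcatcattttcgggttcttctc
Mcm3: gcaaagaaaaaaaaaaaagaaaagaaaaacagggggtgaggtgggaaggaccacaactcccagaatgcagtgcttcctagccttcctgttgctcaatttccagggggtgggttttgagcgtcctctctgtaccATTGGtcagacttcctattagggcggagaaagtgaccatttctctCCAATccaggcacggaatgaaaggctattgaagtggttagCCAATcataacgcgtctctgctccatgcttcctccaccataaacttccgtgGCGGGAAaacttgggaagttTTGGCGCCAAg
Cenpa: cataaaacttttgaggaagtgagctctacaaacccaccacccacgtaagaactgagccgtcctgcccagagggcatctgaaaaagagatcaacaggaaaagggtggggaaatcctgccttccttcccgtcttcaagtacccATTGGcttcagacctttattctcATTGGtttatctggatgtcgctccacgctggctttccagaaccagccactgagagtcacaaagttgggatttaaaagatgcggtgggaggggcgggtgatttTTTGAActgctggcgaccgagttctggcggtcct
Top2a: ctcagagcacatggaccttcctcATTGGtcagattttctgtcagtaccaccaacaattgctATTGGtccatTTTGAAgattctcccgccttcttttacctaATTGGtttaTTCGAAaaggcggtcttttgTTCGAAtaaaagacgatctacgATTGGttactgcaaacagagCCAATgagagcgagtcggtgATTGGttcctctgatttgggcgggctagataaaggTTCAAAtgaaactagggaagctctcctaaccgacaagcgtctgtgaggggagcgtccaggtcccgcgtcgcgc
Mki67: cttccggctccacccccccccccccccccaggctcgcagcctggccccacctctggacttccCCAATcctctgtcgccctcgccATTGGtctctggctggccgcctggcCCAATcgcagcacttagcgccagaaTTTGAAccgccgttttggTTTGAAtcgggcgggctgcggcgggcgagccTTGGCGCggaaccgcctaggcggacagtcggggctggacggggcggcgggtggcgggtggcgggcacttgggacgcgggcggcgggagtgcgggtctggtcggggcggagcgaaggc

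To count cycling cells at equal depth, each cell was thinned to 1500 UMIs, which left 10330 cells under GFI1 KO and 18801 under WT after 165 and 541 shallower cells dropped out. A cell was called cycling when it then held UMIs of at least 3 different S phase members or at least 3 different mitosis members. Under GFI1 KO 364 cells (3.52%, interval 3.18 to 3.90) were called and under WT 728 cells (3.87%, 3.60 to 4.16), a difference of −0.348 points (−0.798 to 0.113) whose interval includes 0. Among these cells 129, 107 and 128 under GFI1 KO met the S limit alone, the mitosis limit alone and both, against 313, 191 and 224 under WT. Of the called cells 100 under GFI1 KO and 247 under WT lay exactly at the limit. Without thinning the shares were 26.0% and 24.9%.

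Over all cells the summed S phase members were at 369 CPM under GFI1 KO and 469 CPM under WT, a ratio of 0.788 (0.777 to 0.798), and the mitosis members at 452 and 541 CPM, a ratio of 0.835 (0.825 to 0.845). No member passed 2-fold, against 3.18% of 16315 genes upward and 25.0% downward, and the median log2 ratios of −0.32 for S phase and −0.33 for mitosis members lay near the −0.37 of all genes. Pcna was at a ratio of 0.874, Mki67 at 0.799, Top2a at 0.774, Stmn1 at 0.5997 and Mcm2 at 0.567, while Ube2c and the kinase gene Aurkb were each at 1.15. With cells weighted equally, the ratio of the mitosis members over the gated cells moved from −0.24 to 0.011 on the log2 scale.

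WT mature neutrophils, which have left the cycle, gave a low background. In them 4 of 1526 cells were called (0.262%, interval 0.0715 to 0.670; 3.19% unthinned) at a median depth of 2967 UMIs, and 3 in 4 of those (75.0%) were called doublets. In cells not called, the summed S phase members were at 98.6 CPM in WT neutrophils. They were at 432 CPM in WT NK cells, 371 in WT B cells and 319 in WT alveolar macrophages. Calls from such scattered UMIs were not measured in those types, so 0.262% is not their background. The neutrophil gate of the GFI1 KO library held 67 cells, in which the granule protease gene Prtn3 was detected in 64.2% and the mature neutrophil gene Retnlg in 14.9%, against 0.675% and 82.3% under WT, so these cells were not used as mature neutrophils.

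Alveolar macrophages, the resident phagocytes of the airspace, were the largest group of called cells in each library. They made up 47.8% of the called cells and 24.3% of all cells under GFI1 KO, and 36.8% and 22.1% under WT. T cells made up 13.2% and 17.03% of the called cells, NK cells 9.07% and 12.2%, B cells 4.67% and 13.2%, and conventional dendritic cells 1.10% and 6.87%. Classical monocytes gave 9.07% of the called cells under GFI1 KO, where they were 35.4% of all cells, and 0.137% under WT. The near-equal overall shares came with different cell type mixtures, whose part was not tested. Over 10 cell types, the GFI1 KO shares within types gave 3.44% with the GFI1 KO mixture and 5.28% with the WT mixture. The WT shares within types gave 2.91% with the GFI1 KO mixture and 3.88% with the WT mixture. The 10 types included the neutrophil gate, with 4.48% called under GFI1 KO and 0.262% under WT. Its cells were unlike in the 2 libraries. The classical monocyte, conventional dendritic and interstitial macrophage gates, also among these types, held different mixtures too, as given below. The swapped values therefore do not compare like cells in these gates, and they carry no interval.

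**Figure D2:**
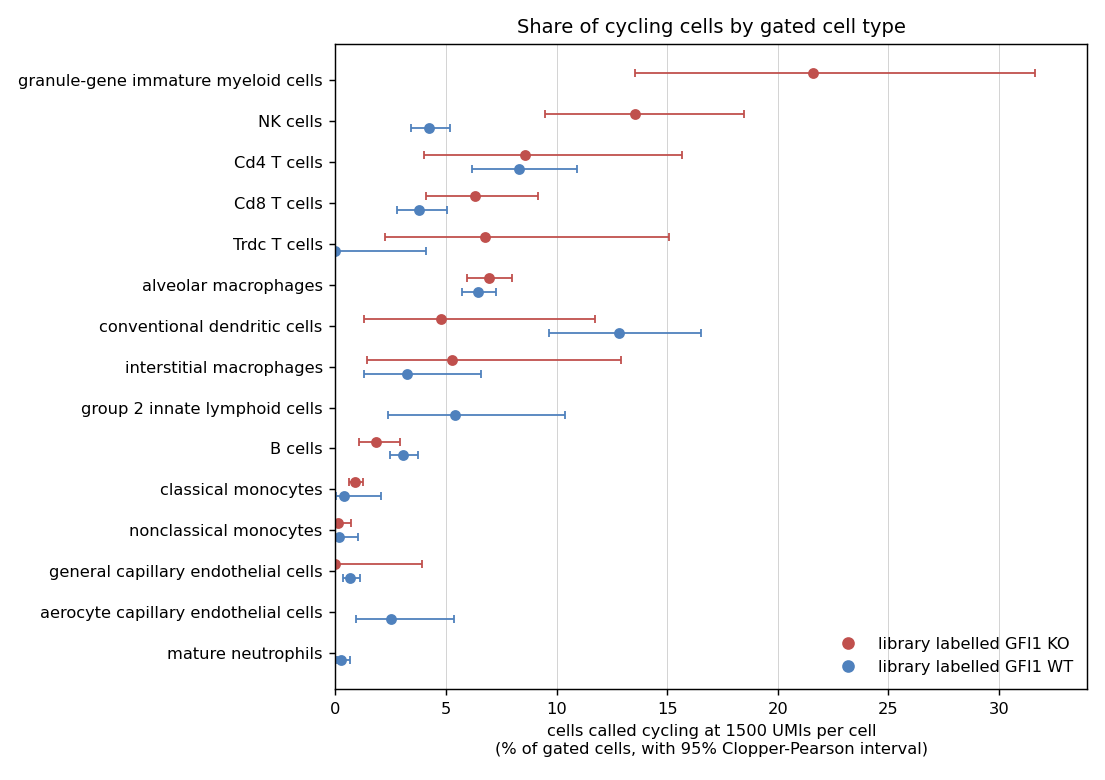
Percent of cells called cycling at 1500 UMIs per cell in each gated cell type, under each label, with exact Clopper-Pearson 95% intervals for counting error. NK cells stand at 13.5% against 4.22% and conventional dendritic cells at 4.76% against 12.8%, while alveolar macrophages stand at 6.92% and 6.46%.

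NK cells, innate lymphocytes that kill stressed cells, had the largest difference in share among the types gated with at least 50 cells in both libraries. In the GFI1 KO library 33 of 244 NK cells were called cycling (13.5%, interval 9.50 to 18.5) and in the WT library 89 of 2111 (4.22%, 3.40 to 5.16), a difference of 9.31 points (5.17 to 14.3). Unthinned, the shares were 34.8% and 20.6%, at median depths of 4774 and 3724 UMIs. The phases differed too. Under GFI1 KO 8 cells met the S limit alone, 10 the mitosis limit alone and 15 both, and under WT 59, 12 and 18, so that the share meeting the mitosis limit was 10.2% against 1.42%, a difference of 8.82 points (5.27 to 13.4). Called cells under GFI1 KO held a median of 6 different mitosis members and under WT a median of 1, and 25 of 33 against 34 of 89 held at least 5 members of either list.

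In NK cells each of the 47 members had a ratio of GFI1 KO over WT above 1, or 44 of them, without Mcm2, Pcna and Cdt1, when all gene UMIs made the total or when cells were weighted equally. Summed over the list, S phase members were 1.99-fold higher (interval 1.89 to 2.10) and mitosis members 4.51-fold higher (4.31 to 4.72), at 2187 against 485 CPM. At least 2-fold higher were 10 of 18 S phase and 26 of 28 mitosis members, against 7.17% of the 10781 genes tested in NK cells. The median log2 ratio was 1.08 over S phase members and 2.47 over mitosis members, against −0.05 over all genes.

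Among the mitosis members, Ube2c, the ubiquitin-conjugating enzyme of the anaphase-promoting complex, was at 172 CPM under GFI1 KO (266 UMIs) and 14.9 CPM under WT (139 UMIs), a ratio of 11.5 (9.37 to 14.3). Ccnb1, the cyclin B1 subunit that drives entry into mitosis, was at 32.3 CPM (50 UMIs) against 2.46 CPM (23 UMIs), a ratio of 13.1 (7.86 to 22.5). These were the highest ratios of any member in NK cells. Top2a was at 286 against 68.6 CPM (4.16, 3.68 to 4.705) and Mki67 at 202 against 41.3 CPM (4.88, 4.19 to 5.68). Smc2, a condensin subunit, was at 129 against 52.0 CPM, a ratio of 2.48. Cenpa had the smallest ratio among the 5 mitosis members with the most UMIs, at 169 against 88.2 CPM (1.92), and Ect2, which starts the cleavage furrow, was at a ratio of 1.70. These were the only mitosis members below 2-fold, and the ratios of the 24 others apart from Ube2c and Ccnb1 ran from 2.48 to 8.43.

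Among the S phase members, Pclaf stood apart at 215 CPM under GFI1 KO and 38.1 under WT, a ratio of 5.63 (4.83 to 6.55), and Rrm2, the regulated subunit of ribonucleotide reductase, was at a ratio of 5.13. The helicase subunits were closer, with Mcm3 at 2.16, Mcm6 at 1.57 and Mcm4 at 1.49. Pcna, the sliding clamp, was at 143 against 136 CPM, a ratio of 1.05 (0.908 to 1.21), and the licensing factor Cdt1 was at 1.04 (0.779 to 1.36), with intervals that include 1. Stmn1 was at 490 against 154 CPM, a ratio of 3.19 (2.92 to 3.48).

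Most UMIs of the members lay in called cells under GFI1 KO. In the GFI1 KO library 91.8% of the mitosis UMIs and 77.8% of the S phase UMIs of NK cells came from the 33 called cells, which held 27.7% of the depth, and 5 cells alone gave 35.6% of the mitosis UMIs. Under WT the called cells held 62.7% and 35.8%, with 7.36% of the depth. In the other NK cells the summed S phase level was 0.884 of the WT level (0.798 to 0.978) and the mitosis level 1.29 (1.13 to 1.46). Called NK cells were deeper than the rest, at a median of 11802 UMIs under GFI1 KO and 6649 under WT, and 6.06% and 10.1% of them were called doublets. Summed T cell markers in the NK gate were at 932 CPM (1 of 8 at 0) and 936 CPM (0 of 8 at 0), and at least 3 T cell markers were found in 69.7% and 51.7% of called NK cells against 31.8% and 26.7% of the others. The part of depth and of T cell markers in the difference was not tested.

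Cell cycle genes outside the members, which played no role in the call, were also higher in NK cells under GFI1 KO. Against 7.17% of the 10781 genes tested in NK cells, at least 2-fold higher were 17 of 35 replication genes, 31 of 39 mitosis genes with enough UMIs and 6 of 12 regulators of the E2F, RB and DREAM group. Those with the most UMIs among them were Tubb5, a tubulin, at a ratio of 2.29, the chromatin protein gene Hmgb2 at 1.91 and the histone variant gene H2az1 at 1.31. Of the transcription factors that drive mitosis genes, Foxm1 was at 2.25 (1.31 to 3.73) and Mybl2 at 3.02 (1.37 to 6.27). Of 9 G1 cyclins and kinases tested, 6 had a ratio above 1 and 3 were at least 2-fold higher, at a median log2 ratio of 0.77, with Cdk6, the kinase partner of D cyclins, at 1.92 and the D cyclin genes Ccnd2 at 0.651 and Ccnd3 at 0.718. Among brakes of the cycle Rb1 was at 0.542, Rbl2 at 0.660 and the CDK inhibitor Cdkn1b at 0.864, while Cdkn1a was at 1.44, a direction that turned without called doublets and with Leiden clusters in place of gates. Of 9 CDK inhibitor and exit genes tested, 4 had a ratio above 1. Their median log2 ratio was −0.08, against −0.05 over all genes.

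**Figure D3:**
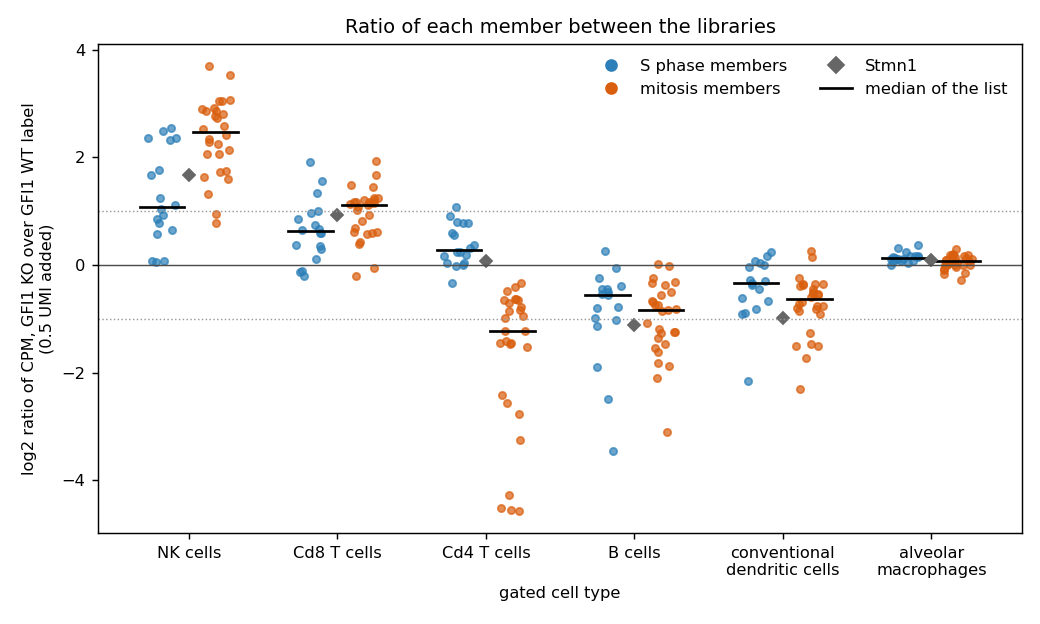
log2 ratio of the GFI1 KO level over the WT level (0.5 UMI added) for each member, in NK, Cd8 T, Cd4 T, B, conventional dendritic and alveolar macrophage gates, with dotted lines at 2-fold in either direction. Mitosis members lie mostly above the upper line in NK cells, mostly below 0 in Cd4 T and B cells, and near 0 in alveolar macrophages.

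T cells as a whole showed little difference, at 48 of 767 cells (6.26%; 26.7% unthinned) under GFI1 KO and 124 of 2496 (4.97%; 24.0%) under WT, 1.29 points apart (−0.566 to 3.41). No member passed 2-fold in the summed T cells, against 4.28% of 11464 genes in the upward and 5.35% in the downward direction. Pcna was at a ratio of 0.854, Top2a at 1.07, Mki67 at 0.908 and Stmn1 at 1.19. The subsets of T cells are given next, and the contrasts between them were not tested.

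In Cd8 T cells, the cytotoxic subset, 25 of 397 cells (6.30%, interval 4.12 to 9.16; 30.1% unthinned) were called under GFI1 KO and 46 of 1211 (3.80%, 2.79 to 5.03; 25.9% unthinned) under WT, 2.50 points apart (−0.00802 to 5.53). The share meeting the mitosis limit was 4.03% against 1.73%, 2.30 points apart (0.362 to 4.82). Summed S phase members were 1.33-fold higher (1.25 to 1.41) and mitosis members 1.71-fold higher (1.62 to 1.81). At least 2-fold higher were 4 of 18 S phase and 17 of 28 mitosis members, against 3.76% of the 10191 genes tested. Cdk1, the kinase that drives mitosis, was at 31.3 CPM under GFI1 KO against 8.13 CPM under WT, a ratio of 3.85 (2.62 to 5.68). Top2a was at 150 against 65.1 CPM (2.30, 1.98 to 2.67), Mki67 at 83.2 against 39.2 CPM (2.12, 1.74 to 2.59) and Pclaf at 101 against 52.0 CPM (1.95). Not all members were higher, since Cenpa was at 0.868 (0.759 to 0.991), Cdt1 at 0.870 and Pcna at 0.923 (0.801 to 1.06). Of the UMIs of mitosis members 82.6% under GFI1 KO and 61.5% under WT lay in called cells, with 51.2% and 31.1% in 5 cells, and outside the called cells the summed mitosis level was 0.812 of the WT level. Of the lists outside the members, 5 of 35 replication and 11 of 35 mitosis genes were at least 2-fold higher.

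In Cd4 T cells, the helper subset, the shares of called cells were alike, at 9 of 105 (8.57%, interval 3.99 to 15.6; 26.4% unthinned) and 47 of 565 (8.32%, 6.18 to 10.9; 25.0% unthinned), 0.253 points apart (−5.01 to 7.65). The 9 cells under GFI1 KO met the S limit alone in 3 and both limits in 6, while under WT 15 of 47 met the mitosis limit alone. The share meeting the mitosis limit was 5.71% against 6.55%, −0.834 points apart (−5.13 to 5.75). Summed over all cells of the gate, the 2 lists went in opposite directions. The S phase members were at 1.22 of the WT level (1.12 to 1.33) and the mitosis members at 0.425 (0.384 to 0.469). At least 2-fold lower under GFI1 KO were 15 of 28 mitosis members, against 7.95% of the 9014 genes tested, at a median log2 ratio of −1.23. Of the S phase members 1 of 18, Mcm6, was at least 2-fold higher, against 3.29% of genes. In the Cd4 T cells not called, the summed mitosis level was 1.29 of the WT level (1.07 to 1.55). The summed S phase level in those cells was 1.03 of the WT level (0.873 to 1.21).

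Nusap1, which bundles spindle microtubules, had 4 UMIs (8.29 CPM) in Cd4 T cells under GFI1 KO and 273 (89.3 CPM) under WT, a ratio of 0.0927. Cenpf, a kinetochore protein, had 6 (12.4 CPM) and 279 (91.3 CPM), a ratio of 0.136, and Ube2c 13 (26.9 CPM) and 457 (150 CPM), a ratio of 0.180. Ccnb1, Cdc20, Plk1 and Bub1, which act from mitotic entry to the spindle checkpoint, had 0 UMIs under GFI1 KO and 74, 75, 61 and 72 under WT, so they were at least 3.90, 3.95, 3.21 and 3.79-fold lower, taking 3 counts as the limit of a count of 0. Top2a was at 131 against 260 CPM (0.502, 0.382 to 0.649) and Mki67 at 72.5 against 199.96 CPM (0.363, 0.250 to 0.510). On the S phase side Mcm6 was at 178 against 84.4 CPM (2.11, 1.63 to 2.70) and Tyms, thymidylate synthase, at 78.7 against 45.5 CPM (1.73), while Pclaf (0.976) and Pcna (1.02) were close in both libraries. Of the mitosis genes outside the members, 14 of 38 were at least 2-fold lower, against 7.95% of all genes tested. Foxm1, a transcription factor of mitosis genes, had 3 against 53 UMIs, a ratio of 0.358 (0.0716 to 1.11). Few cells carried these values, since 5 cells of the GFI1 KO library gave 54.9% of its mitosis UMIs in this gate, and the 9 called cells 65.9%, and with cells weighted equally the mitosis ratio was −0.46 on the log2 scale, against −1.24.

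Trdc T cells, gated on the T cell receptor delta constant gene, had 5 called cells of 74 under GFI1 KO (6.76%, interval 2.23 to 15.1) and 0 of 88 under WT, for which 3 counts set a limit of 3.41%. Of the 5 cells 4 met the S limit alone. Summed levels were 1.66-fold higher for S phase and 3.16-fold higher for mitosis members, but 12 of the 47 members reached 30 UMIs, and 4 of 5 such mitosis members were at least 2-fold higher, against 9.89% of 5217 genes. Ube2c had 38 UMIs against 2, Mki67 36 against 1 (ratio 42.5, 7.15 to 1724) and Top2a 35 against 7. Few cells carried these levels under GFI1 KO, where 5 cells gave 70.6% of the mitosis and 54.3% of the S phase UMIs. Under WT 5 cells gave 24.6% and 19.3%. The share difference went from 6.76 to −0.706 points in the lowest of 20 other thinning draws, so no difference could be read at this depth.

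B cells, the antibody lineage, had lower levels of most members under GFI1 KO. Under GFI1 KO 17 of 922 B cells were called (1.84%, interval 1.08 to 2.94; 11.3% unthinned) and under WT 96 of 3132 (3.07%, 2.49 to 3.73; 17.2% unthinned), −1.22 points apart (−2.24 to 0.0130), and the share meeting the mitosis limit was 0.434% against 1.28%, −0.843 points apart (−1.40 to −0.0784). Of the called cells 13 of 17 met the S limit alone under GFI1 KO and 56 of 96 under WT, and 2 of 17 against 34 of 96 held at least 5 members of either list. The summed S phase members were at 0.712 of the WT level (0.669 to 0.757) and the mitosis members at 0.694 (0.652 to 0.738). At least 2-fold lower were 5 of 17 S phase members with enough UMIs and 13 of 28 mitosis members, against 4.90% of the 11130 genes tested.

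Pclaf had 10 UMIs in B cells under GFI1 KO (3.12 CPM) and 467 under WT (35.8 CPM), a ratio of 0.0872 (0.0415 to 0.162). Cdk1 had 3 UMIs (0.935 CPM) and 122 (9.34 CPM), a ratio of 0.1001 (0.0204 to 0.2996). Top2a was at 30.9 against 55.4 CPM (0.558), Mki67 at 16.5 against 26.4 CPM (0.626), Pcna at 69.5 against 95.2 CPM (0.731) and Stmn1 at 34.6 against 74.9 CPM (0.462). Cenpa (145 against 143 CPM) and Smc2 (0.985) were close in both libraries, and Cdt1 was at 1.20 (1.05 to 1.35). In B cells not called cycling, the summed levels of the libraries were close, at ratios of 0.976 for S phase and 1.01 for mitosis members. Outside the members, 4 of 35 replication and 15 of 39 mitosis genes were at least 2-fold lower, against 4.90% of all genes tested. The D cyclin gene Ccnd2 was at 0.420. Of the replication genes outside the members, 9 of 22 were at least 2-fold higher in called than in other B cells under GFI1 KO, against 12.6% of genes, and 32 of 35 under WT, against 10.3%.

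Alveolar macrophages cycled at like shares in the 2 libraries and gave the most cells. In the GFI1 KO library 174 of 2513 were called (6.92%, interval 5.96 to 7.99; 47.5% unthinned) and in the WT library 268 of 4147 (6.46%, 5.73 to 7.25; 52.6% unthinned), 0.461 points apart (−0.784 to 1.75). The S limit alone, the mitosis limit alone and both were met by 75, 30 and 69 cells under GFI1 KO and by 109, 66 and 93 under WT. Summed S phase members were at 1.10 of the WT level (1.08 to 1.12) and mitosis members at 1.04 (1.02 to 1.06), and no member passed 2-fold in either direction, against 0.752% of 12893 genes upward and 4.97% downward. A ratio above 1 was found for 39 of the 47, and for 34 when all gene UMIs made the total. The median log2 ratio was 0.10 over the 47 members, against −0.011 over all genes tested. In the alveolar macrophages not called, the summed levels were below the WT level. They were at 0.966 of it (0.941 to 0.992) for S phase and 0.912 (0.877 to 0.947) for mitosis members.

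The members spread narrowly in these cells. The highest lower bounds were those of Tk1, thymidine kinase, at a ratio of 1.29 (1.15 to 1.45), and of Kif11, the motor that pushes spindle poles apart, at 1.23 (1.105 to 1.36). Cenpf was at 0.822 (0.736 to 0.918) and Bub1b, a spindle checkpoint kinase homologue, at 51.4 against 57.9 CPM (0.888, 0.835 to 0.945). Mki67 was at 52.2 against 49.1 CPM (1.06, 0.997 to 1.13), Top2a at 74.2 against 65.0 CPM (1.14), Pcna at 165 against 147 CPM (1.12) and Stmn1 at 130 against 123 CPM (1.06). Outside the members, Ccnd1 had 18 UMIs under GFI1 KO and 138 under WT, a ratio of 0.233, while Ccnd2 was at 1.00 and Cdkn1a at 0.963.

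Conventional dendritic cells, which carry antigen to T cells, had the largest difference in the direction opposite to NK cells among the types gated with at least 50 cells in both libraries. Called cells were 4 of 84 under GFI1 KO (4.76%, interval 1.31 to 11.7; 26.2% unthinned) and 50 of 390 under WT (12.8%, 9.67 to 16.6; 38.6% unthinned), −8.06 points apart (−13.1 to −0.396). The summed mitosis members were at 0.544 of the WT level (0.499 to 0.591) and S phase members at 0.787. At least 2-fold lower were 1 of 17 S phase and 6 of 28 mitosis members, against 6.49% of the 9724 genes tested. Top2a was at 57.6 against 161 CPM (0.357, 0.263 to 0.476), Mki67 at 51.8 against 173 CPM (0.299, 0.216 to 0.404) and Tpx2, a spindle assembly factor, at 9.22 against 48.6 CPM (0.190, 8 against 223 UMIs). Pcna (105 against 103 CPM) and Cenpa (1.11) were close in both libraries. Under GFI1 KO the 4 called cells held 79.8% of the 600 mitosis UMIs in this gate, and 5 cells held 81.5%. The intervals of these levels cover counting error only, not the spread between so few cells. In the cells not called, the summed mitosis level was 0.692 of the WT level (0.567 to 0.838). The summed S phase level in those cells was 1.20 of the WT level (1.02 to 1.41). Outside the members, 6 of 31 replication and 9 of 39 mitosis genes were at least 2-fold lower, Ccnd2 was at 0.491 and Cdkn1b at 1.64.

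The dendritic cell gate held different mixtures in the libraries. Summed classical monocyte markers in it were at 1009 CPM under GFI1 KO and 475 under WT, Ccr7, a receptor of migrating dendritic cells, was detected in 14.3% and 28.9% of its cells, and Xcr1, a marker of the first subset of conventional dendritic cells, in 48.8% and 44.5%. Their part in the lower share was not tested. With 5 genes, 1000 UMIs, without called doublets, with Leiden clusters or with the mitosis limit alone, the interval of the difference included 0.

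**Figure D4:**
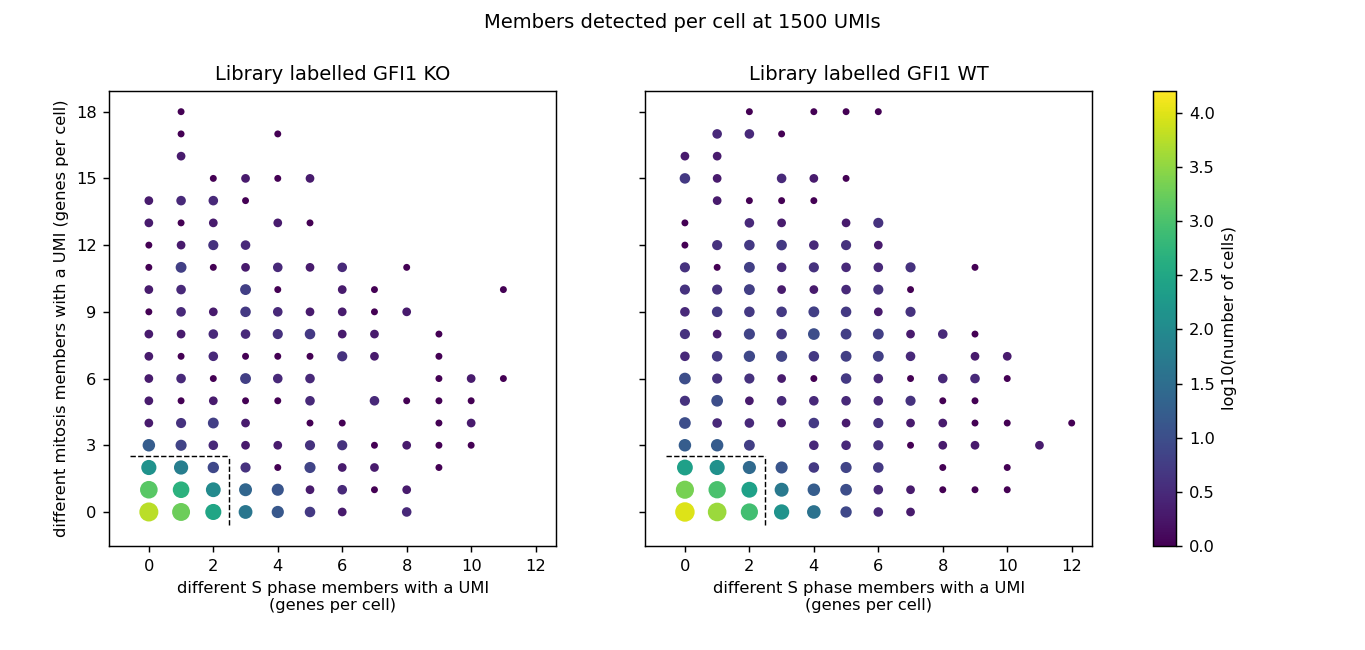
Number of different S phase members (x axis) and mitosis members (y axis) with a UMI in each cell at 1500 UMIs, 1 panel per library, colour for the number of cells and a dashed line at the limit of 3 genes. Most cells sit at 0 or 1 on both axes, and the called cells spread up to 18 mitosis members.

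Among monocytes, the members were low under both labels. Of the classical monocytes, which circulate in blood and enter inflamed tissue, 33 of 3656 were called under GFI1 KO (0.903%, interval 0.622 to 1.27, and 19.6% unthinned). Under WT it was 1 of 266 (0.376%, 0.00952 to 2.08, and 7.84% unthinned). Of the 33 cells 26 met the mitosis limit alone, and their median was 1 S phase and 5 mitosis members. At least 3 markers of the granule gene gate were found in 30.3% of the 33 called cells and in 5.05% of the others under GFI1 KO. In the called cells 5 of 10 of these markers were at 0. The part of such cells in the call was not tested. The gate held different mixtures in the libraries, as 72.2% of its GFI1 KO cells and 56.7% of its WT cells lay in different clusters of classical monocytes (clusters 2 and 4), and S100a8 was at 1483 against 32.9 CPM in the cells not called. The summed levels were 163 CPM for S phase and 221 CPM for mitosis members under GFI1 KO, at ratios of 1.05 and 1.32. At least 2-fold higher were 4 of 17 S phase and 6 of 28 mitosis members, against 6.16% of the 11436 genes tested. Pclaf had 313 UMIs (8.63 CPM) against 2 (1.00 CPM), a ratio of 8.62 (2.37 to 71.5), and Ube2c was at 26.1 against 6.01 CPM (4.34, 2.47 to 8.43). Pcna was at 64.6 against 86.7 CPM (0.745), Top2a at a ratio of 1.14 and Stmn1 at 1.41. Nonclassical monocytes, the Ly6c-low form, had 1 called cell of 800 and 1 of 548. Their summed ratios were 0.818 for S phase and 1.16 for mitosis members, with Pcna at 0.782 (0.686 to 0.891) and Mcm6 at 0.429 (0.278 to 0.657).

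The highest share in any gate with more than 50 cells was in cells that expressed granule protease genes, a feature of immature myeloid cells, and that passed a gate in the GFI1 KO library only. Of these 19 of 88 were called (21.6%, interval 13.5 to 31.6; 54.5% unthinned), 7 by the mitosis limit alone and 10 by both. Summed S phase members were at 1129 CPM and mitosis members at 1933 CPM, with 86.9% and 90.7% of the UMIs in the called cells. The granule genes differed in direction between these called cells and the other 69. Among primary granule genes Mpo, myeloperoxidase, was at 451 against 28.4 CPM, Elane, neutrophil elastase, at 799 against 165 CPM and Prtn3, proteinase 3, at 1456 against 636 CPM. Fcnb, a ficolin gene, was at 57.0 against 99.5 CPM, Ngp, Camp and Ltf, of later granules, had 0 to 1 UMIs in the called cells and 0 to 4 in the others, and S100a8 was at 11701 against 22816 CPM. Monocyte markers summed to 4348 CPM in this gate.

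Other gates held few called cells. Interstitial macrophages had 4 of 76 (5.26%) and 7 of 216 (3.24%), and 2 of the 4 cells under GFI1 KO were called doublets. The gate held different cells under each label, since 57.9% of its GFI1 KO cells lay in a cluster of classical monocytes and 83.7% of its WT cells in the cluster of interstitial macrophages, with Pf4 detected in 25% and 69.2%, so the values below do not compare like cells. The summed mitosis members were at 2.15 of the WT level with 86.7% of the GFI1 KO UMIs in 5 cells, and at least 2-fold higher were 9 of 17 mitosis members tested, against 3.96% of 8587 genes. Prc1, which bundles midzone microtubules, had 24 UMIs against 15 (4.47, 2.25 to 9.17), Mki67 50 against 84 UMIs at a ratio of 1.66 and Pcna 0.903. General capillary endothelial cells had 0 of 92 under GFI1 KO and 13 of 1989 (0.654%) under WT, of which 61.5% were called doublets, and a difference was not detectable at this depth.

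**Figure D5:**
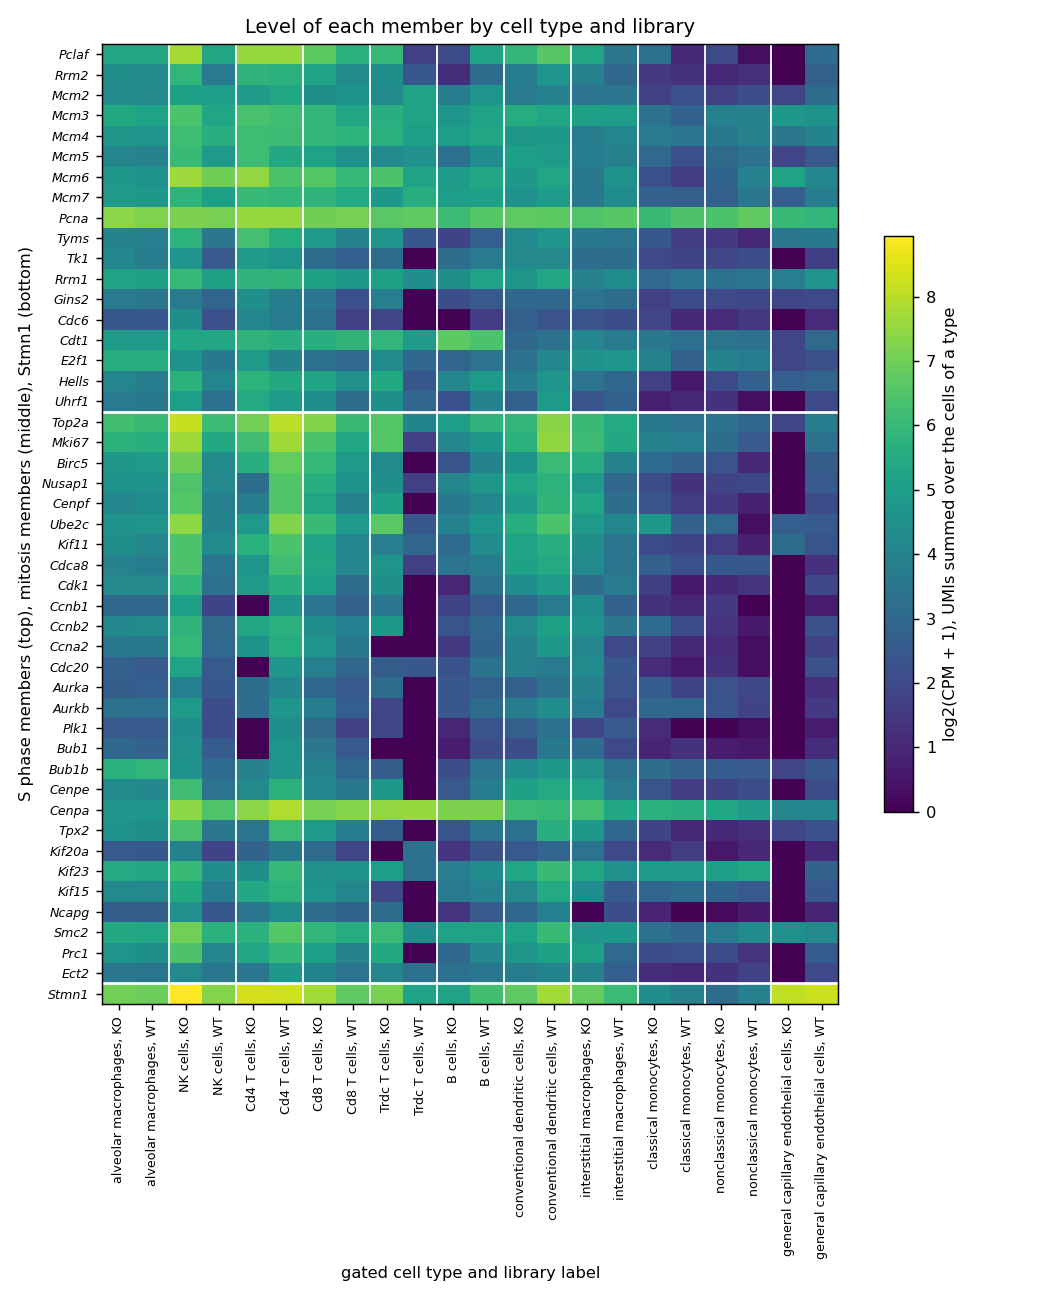
Level of each member, as log2(CPM + 1) by colour, in 11 gated classes under each label. Mitosis members are brightest in NK cells under GFI1 KO and in Cd4 T cells under WT.

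Across 11 chosen classes, each with at least 50 cells in both libraries, the class with the highest level of a member changed with the label. The neutrophil gate and the T cells outside the named subsets were not among these classes. Under GFI1 KO the highest class was NK cells for 34 of the 47 members and Cd4 T cells for 8, and under WT it was Cd4 T cells for 42 and NK cells for 1. Some of the 34 were near ties with Cd4 T cells, as Mcm3 at 83.4 against 82.8 CPM and Mcm4 at 71.1 against 70.4 CPM. Some members kept their class, as E2f1, the transcription factor of S phase entry, and Bub1b were highest in alveolar macrophages and Cdt1 in B cells in both libraries. Cdt1 stood at 101 CPM in B cells under GFI1 KO and 84.5 under WT, and general capillary endothelial cells held its lowest level in each, at 2.65 and 7.60 CPM. All S phase members together had 69 UMIs in the capillary gate under GFI1 KO, so the 2.65 CPM is near the floor. Bub1b stood at 51.4 and 57.9 CPM in alveolar macrophages. The genes outside the lists whose level most followed that of the summed members, over the 22 class and library points that share these libraries and depths, were Neil3 (Pearson r = 0.930), Cenpp (0.927), Spag5 (0.926), Cenph (0.911) and Ran (0.911), of 16294 genes ranked.

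The members differed in how closely they kept to dividing cells. For each gene, cells were called again without it, and the share of its UMIs that lay in called cells was taken. The median was 35.5% under GFI1 KO and 25.1% under WT over S phase members, and 75.2% and 69.1% over mitosis members. Pclaf was the S phase member most tied to called cells under WT (85.3% under GFI1 KO and 92.97% under WT) and Rrm2 under GFI1 KO (90.2% and 76.7%). Pcna (16.4% and 13.6%) and Cdt1 (12.6% and 7.82%) were mostly found elsewhere, and among mitosis members Cenpa was (14.2% and 11.9%). Bub1 had 96.4% and 87.2% of its UMIs in called cells, Top2a 80.9% and 77.2% and Mki67 75.2% and 79.0%. Ube2c differed between the libraries at 51.1% and 85.8%, and Stmn1 at 55.5% and 32.1%. The CDK inhibitor gene Cdkn1b had 2.85% and 2.996% of its UMIs in called cells and the D cyclin gene Ccnd3 2.45% and 2.27%. Called cells were 3.52% and 3.87% of all cells and held 5.45% and 7.07% of the UMIs of all kept genes.

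Genes with no role in the call separated called cells from the rest of their class, least so in B cells under GFI1 KO. In alveolar macrophages 35 of 35 other replication genes and 41 of 42 other mitosis genes were at least 2-fold higher in the called cells in each library, against 9.16% of genes under GFI1 KO and 8.41% under WT, at median log2 ratios of 3.08 and 5.68 under GFI1 KO and 2.71 and 5.51 under WT. In NK cells the counts were 27 of 28 and 30 of 31 under GFI1 KO, against 9.61% of genes, and 30 of 35 and 32 of 34 under WT, against 9.23%. In T cells they were 35 of 35 and 28 of 30 against 8.39%, and 31 of 35 and 38 of 40 against 12.6%. In B cells under GFI1 KO they were 9 of 22 and 13 of 15, against 12.6%, at median log2 ratios of 0.62 and 1.73. In B cells under WT they were 32 of 35 and 36 of 38, against 10.3%, at medians of 2.41 and 4.01. In WT dendritic cells they were 29 of 30 and 36 of 37, against 8.66%, in GFI1 KO classical monocytes 31 of 32 and 33 of 34, against 13.3%, and in the granule gene gate 22 of 22 and 22 of 23, against 12.2%. The medians of CDK inhibitors and exit genes lay near 0 or below in these contrasts, at log2 ratios of −0.83 and −0.50 in NK cells and 0.15 and 0.19 in alveolar macrophages. At least 2-fold higher in called cells were 3 of 11 of these genes in alveolar macrophages of each library. In WT T cells it was 4 of 10, against 12.6%, and in WT dendritic cells 3 of 11, against 8.66%. At least 2-fold lower were 0, 1 and 2 genes in the same order. In NK cells 2 of 9 were higher and 4 lower under GFI1 KO, and 1 of 9 higher and 0 lower under WT. The share of all genes at least 2-fold lower in called cells is not given, so the lower counts are not read as a result.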

How the data were processed

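Single cells of 2 mouse lung libraries, 1 labelled GFI1 KO and 1 labelled WT, were analysed from the deposited matrices of raw UMI counts per gene and cell, which the authors made with Cell Ranger 9.0.1 on GRCm39 (mm39) according to the submitters' processing notes. The 18 antibody tags in the matrices were not used. Following the study's filters, cells with under 500 UMIs, under 200 genes or over 20% mitochondrial UMIs were removed, and 9538 ribosomal, mitochondrial and Gm- genes (18.9% of GFI1 KO and 16.4% of WT UMIs) were left out, keeping 24158 genes. The members and lists were chosen with earlier results of these data known.

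Cell types were gated from summed marker levels per cell (z values capped at 5, a score of at least 0.5, a lead of 0.2 over the next type, at least 3 markers), thresholds set after seeing the data, with 726 and 711 cells near a threshold. Doublets called by Scrublet (346 and 1146 cells) stayed in the main values. For the cycling call each cell was thinned once to 1500 UMIs. Levels used all UMIs of a class, without thinning. A gene was compared where it had at least 30 UMIs over both libraries, and passed where the ratio, with 0.5 UMI added to each side, reached 2-fold. Shares were given Clopper-Pearson intervals, differences square-and-add intervals, levels Poisson intervals and ratios conditional binomial intervals, all at 95%. Named genes were those with the most UMIs (5 per list and class), the 2 highest and 2 lowest ratios by the bound nearer to 1, and Mki67, Top2a, Pcna and Stmn1; of the other lists, the 3 with the most UMIs and selected regulators; and members described by where their UMIs lay were chosen after their values were seen. Promoters came from a RefSeq table of GRCm38.p6 with 32851 windows of 27025 genes. The ratio and list counts were tested on simulated data first. Python 3.11.15, numpy 2.4.6, scipy 1.17.1, pandas 2.3.3, scanpy 1.11.5, leidenalg 0.10.2 and matplotlib 3.10.9 were used. Alternatives changed the call, the depth, the total, the doublets and the cell grouping.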

Additional observations from a re-analysis of the deposited data

Results flagged for a closer look

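The differences in the share of called cells between the labels went in opposite directions in NK cells, at 9.31 points, and in conventional dendritic cells, at −8.06 points, and with 1 library per label this contrast between cell types was not tested. Cells that passed no gate were outside the comparisons by cell type but within the values over all cells. Of these ungated cells 28 of 917 under GFI1 KO (3.05%) and 48 of 839 under WT (5.72%) were called cycling, −2.67 points apart (−4.73 to −0.683). Both shares were above the 0.262% of WT mature neutrophils, which is not a background for every type. Called doublets were 9.8% of the ungated cells under GFI1 KO and 26.3% under WT, so unlike cells are compared.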

How the results depend on the processing

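No paired analysis was possible because the labels share only the number of mouse 1 and hold 1 library each, so no library could be left out either. Of the main shares, levels and gene counts under each alternative, 222 stayed within their interval or within 1.5 times, 71 moved and 7 turned direction. Of the values of single genes 1813 stayed, 208 moved and 21 turned. A turn was counted only where the main interval lay on 1 side of equality, so other changes of sign count as stayed or moved. The difference in share kept its sign in 6 of 11 alternatives in all gated cells and in 4 of 11 in nonclassical monocytes. The S phase level in interstitial macrophages kept its sign in 1 of 5 alternatives and the mitosis level in T cells in 2 of 5. The NK difference in share kept its direction in all 11 alternatives (7.76 to 14.2 points) and the dendritic cell difference too (−12.4 to −3.88). Depth limited the gates with few cells, and the causes below were not tested.

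Differences in share are in points. With a limit of 2 different genes they were −2.26 in all gated cells, −1.32 in Cd8 T cells, −2.35 in B cells, −4.00 in interstitial macrophages and −3.07 in general capillary cells. At 3000 UMIs they were −2.11 in all gated cells, −3.94 in B cells and 1.34 in classical monocytes. Without thinning they were 2.11 in all gated cells, −5.08 in alveolar macrophages, −5.92 in B cells, 11.8 in classical monocytes, −1.55 in nonclassical monocytes, −15.0 in interstitial macrophages and −3.31 in general capillary cells. Over 20 other thinning draws the lowest were −0.706 in Trdc T cells and −2.52 in B cells, and the highest 0.625 in nonclassical monocytes. With Leiden clusters the difference was 10.4 in interstitial macrophages.

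Levels are log2 ratios, S phase before mitosis members where both are given. With all gene UMIs in the total they were −0.34 and −0.28 in all gated cells and 0.90 and 2.08 in NK cells. Without called doublets they were 1.12 and 2.27 in NK cells and −0.45 and 0.38 in interstitial macrophages, and for mitosis members 0.014 in T cells, 0.87 in Cd8 T cells, −0.95 in B cells and 0.48 in general capillary cells, with Cdkn1a at −0.26 in NK cells, Hmgb2 at −0.0072 in B cells and Top2a at −0.062 in interstitial macrophages. With cells weighted equally they were −0.19 and 0.011 in all gated cells, 0.57 and 1.78 in NK, 0.43 and −0.46 in Cd4 T, 0.16 and 0.63 in Cd8 T, 0.30 and 0.96 in Trdc T and −0.24 and −0.27 in B cells, with mitosis members at 0.14 in T cells and −0.36 in general capillary cells and S phase members at −0.39 in interstitial macrophages. Single genes that turned were Pclaf (0.19), Mki67 (0.13) and Btg1 (−0.049) in all gated cells, Btg1 in NK cells (0.065), Ccnd2 in T cells (0.0066), H2az1 (0.046) and Ccnd3 (−0.081) in B cells and Top2a in interstitial macrophages (−0.026).

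With Leiden clusters in place of gates the levels were −0.35 and −0.28 in all gated cells, 0.22 and 0.20 in alveolar macrophages, 1.15 and 2.44 in NK cells, −0.17 and −0.45 in dendritic cells, −0.025 and −0.0069 in nonclassical monocytes, 0.38 and 1.68 in interstitial macrophages and −0.66 and −1.99 in general capillary cells, with mitosis members at 0.070 in T cells, −0.97 in B cells and 0.86 in classical monocytes. Single genes that turned were Cdkn1a in NK (−0.10), Cd4 T (1.22) and nonclassical monocyte clusters (−0.000766), Hmgb2 in B cells (−0.027), Pcna (0.024) and Ube2c (−0.17) in nonclassical monocytes, and Tuba1b (0.048), Ccnd1 (1.35), Ccnd3 (0.24) and Btg1 (−0.040) in interstitial macrophages.

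Genes past 2-fold with at least 100 UMIs numbered 343 in alveolar macrophages, 852 in NK, 564 in T, 330 in Cd4 T, 340 in Cd8 T, 296 in B and 324 in dendritic cells and 847 in classical monocytes, against 738, 1554, 1104, 1014, 752, 742, 890 and 1514 at 30 UMIs. With at least 10 UMIs they numbered 1430 in alveolar macrophages, 1730 in T, 1877 in Cd4 T, 1372 in Cd8 T, 1374 in B and 1562 in dendritic cells and 2332 in classical monocytes.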

Other observations

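Some gates held too few cells under GFI1 KO for a comparison, from 2 to 15 cells at 1500 UMIs with 0 called in each, and their WT values are given alone. Of group 2 innate lymphoid cells, which make type 2 cytokines in the lung, 8 of 148 were called (5.41%, interval 2.36 to 10.4), 4 of them by the S limit alone, with summed levels of 430 CPM for S phase and 471 CPM for mitosis members, and 25.0% of the 8 were called doublets. Aerocytes, the gas exchange capillary cells, had 6 of 239 (2.51%, 0.927 to 5.38), with 231 and 312 CPM, and fibroblasts 3 of 310 (0.968%). Plasma cells had 5 of 20 and other endothelial cells 5 of 37. Called doublets were 50% of the called aerocytes, 33.3% of the called fibroblasts, 40% of the called plasma cells and 0% of the called other endothelial cells. Plasmacytoid dendritic cells had 0 of 125 and mural cells 0 of 121, for which 3 counts set limits of 2.40% and 2.48%. WT mature neutrophils held summed levels of 102 CPM for S phase and 193 CPM for mitosis members.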
